A study of Mus musculus with 19 samples.

Results

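The genes described here encode the subunits of RNA polymerases I, II and III and of Mediator, in single mouse blastocysts of the Padi6-mutant and the Control group. They were chosen by symbol: every row of the expression table whose name begins with Polr1, Polr2 or Polr3 and a letter, or with Med and a number, with pseudogenes and opposite-strand names left out. The rule found 62 of 14173 listed genes. Of these, 61 encode subunits (31 of the polymerases and 30 of Mediator). The other, Polr1has, is antisense to Polr1h by its name, encodes no subunit of these complexes and is counted apart. Its annotated transcript carries a coding sequence of 876 nt. All 61 were above 0 in all 19 libraries, so no member was lost to low values, and no subunit of the roles used here was missing from the table.

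Each library holds the polyadenylated RNA of 1 blastocyst, the embryo at the stage where inner cell mass and trophectoderm have parted. The 9 Padi6-mutant embryos came from oocytes that carry the P620A missense change in PADI6, a protein that the oocyte stores for the early embryo, and they are those that passed the block at the 2-cell stage. The 10 Control embryos are named only as Control. For neither group do the labels give the strain, the father's genotype, the age of the mothers, the sex of the embryos, the litter or the day. The allele changes 1 residue, so the level of Padi6 RNA does not check the labels: it was 3.81 to 9.24 in Control and 2.00 to 9.27 in mutant embryos on the log2 scale (log2 fold change -0.04, adjusted p = 0.976 by limma). Embryos were taken as independent samples; where litters or batches are shared, the p-values measure less than the full spread.

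The 3 nuclear RNA polymerases divide the genome's transcription: polymerase I makes the large ribosomal RNA precursor, polymerase II makes messenger RNA, and polymerase III makes transfer RNA, the small ribosomal RNA and other short RNAs. Each is built around a pair of very large subunits that form the active centre, with small subunits at the rim, some of which all polymerases share. Mediator is the large complex that carries signals from activators on DNA to polymerase II. Its head and middle touch the polymerase, its tail is met by activators, Med14 runs through it as a scaffold, and a kinase module (Med12, Med13, cyclin C and Cdk8 or Cdk19) joins it reversibly. Early embryos need these machines from genome activation onward, when stored oocyte RNA gives way to the embryo's own.

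The coding sequences of the shared subunits Polr2k (chromosome 15, 177 nt with the stop codon, 58 codons before it) and Polr2l (chromosome 7, 204 nt, 67 codons before the stop) are shown whole because they are the 2 shortest of all 61 members and had the 2 highest fold changes. They are read 5′ to 3′ from the GENCODE M21 transcripts of the GRCm38 build, with start and stop codon in capitals. Both encode small zinc-binding proteins.
Polr2k: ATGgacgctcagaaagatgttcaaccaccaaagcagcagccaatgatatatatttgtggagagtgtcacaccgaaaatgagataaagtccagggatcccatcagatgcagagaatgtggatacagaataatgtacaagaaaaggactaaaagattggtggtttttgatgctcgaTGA
Polr2l: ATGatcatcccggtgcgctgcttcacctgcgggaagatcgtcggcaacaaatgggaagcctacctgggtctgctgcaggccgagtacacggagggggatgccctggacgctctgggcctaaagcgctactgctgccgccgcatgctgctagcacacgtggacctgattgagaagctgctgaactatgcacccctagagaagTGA

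The 120 bases upstream of 3 transcription starts show members that differed in opposite directions: Polr2l at chr7:141475154-141475273 (minus strand), Polr2j at chr5:136116571-136116690 (plus strand) and Polr1b at chr2:129100876-129100995 (plus strand), from RefSeq on GRCm38.p6. Capitals mark the motifs searched on both strands: the GC box GGGCGG, the CCAAT box (ATTGG on the other strand), the TATA box TATAAA, the ETS motif CCGGAAG and the YY1 motif AAGATGGC.
Polr2l: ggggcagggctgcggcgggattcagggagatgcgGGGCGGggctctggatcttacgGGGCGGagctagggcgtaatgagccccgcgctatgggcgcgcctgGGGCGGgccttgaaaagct
Polr2j: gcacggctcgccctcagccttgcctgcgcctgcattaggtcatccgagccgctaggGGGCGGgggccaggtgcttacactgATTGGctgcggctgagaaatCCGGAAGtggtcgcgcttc
Polr1b: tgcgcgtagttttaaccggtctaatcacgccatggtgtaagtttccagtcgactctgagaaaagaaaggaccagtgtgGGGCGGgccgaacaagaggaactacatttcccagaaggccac
The Polr2l window held GC boxes alone, Polr2j a GC box, a CCAAT box and an ETS motif, and Polr1b a GC box. Of the subunit genes, 51 matched the RefSeq promoter table. In their 250 bases upstream, the GC box was present in 60.8%, against 64.0% of the 9421 listed genes that matched and 35.4% of all 27025 promoters in the table. The CCAAT box stood in 35.3% of subunit genes (41.1% of listed genes, 37.5% of all), TATAAA in 9.80% (7.48% and 14.3%), and the ETS motif in 23.5% (16.9% and 7.83%). AAGATGGC was found in Med31 alone (1.96%, against 2.58% and 1.83%). Among the matched members whose RNA rose in the mutants, 10 of 19 held a GC box and 10 of 19 a CCAAT box, and among those that fell 5 of 8 and 2 of 8. A match is a run of letters and not a measured binding site.

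Values are on the authors' log2 scale of an upper-quartile scaled count plus 1, and groups were compared by limma across all genes with Benjamini-Hochberg adjustment and a threshold of 0.05. Of the 61 subunit genes, 22 were higher (36.1%) and 9 lower (14.8%) in the mutants, beside 14.6% higher and 12.0% lower of all genes tested (26.6% in either direction). The other 30 did not pass, with log2 fold changes from -0.88 to 0.82. The median log2 fold change was -0.01 over the members and -0.10 over all genes. RNA polymerase genes gave 11 higher and 4 lower (median 0.30), and Mediator genes gave 11 higher and 5 lower (median -0.06). In 2 members, Polr2l and Polr2i, every mutant embryo lay above every Control embryo, which held for 2.67% of all genes, and in none did the groups part the other way (0.289% of all genes). The plot of fold changes by role shows both directions inside most complexes.

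**Figure D1:**
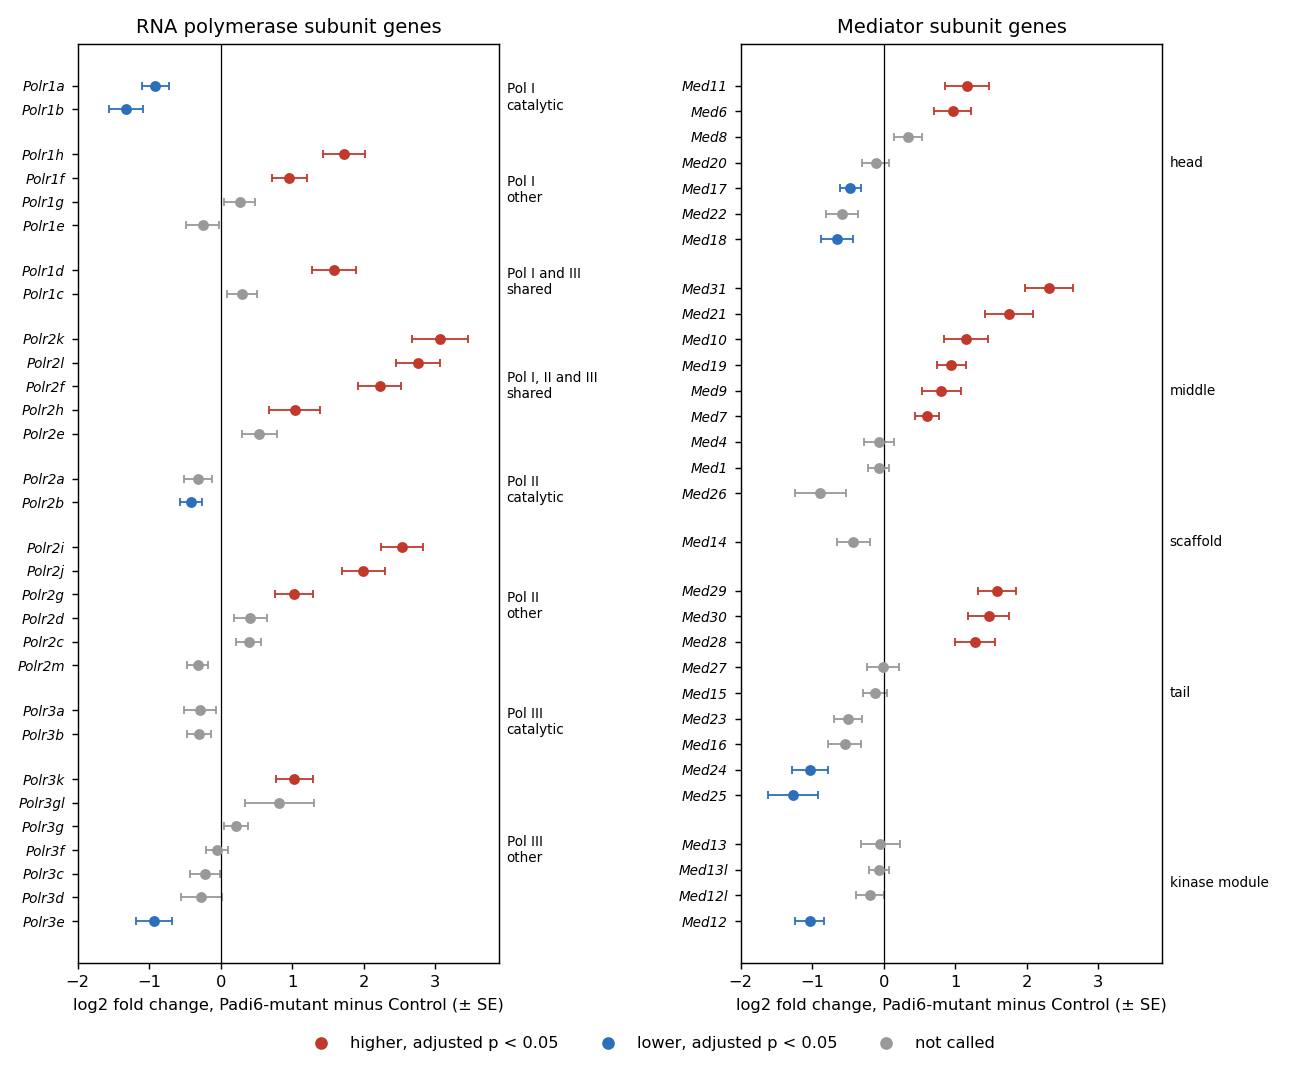
Log2 fold change (Padi6-mutant minus Control, x axis) with its standard error for 30 of the 31 RNA polymerase and all 30 Mediator subunit genes, grouped by role. Red points were higher and blue points lower at an adjusted p under 0.05, and grey points did not pass. Polr2k stands farthest right at 3.07 and Polr1b farthest left at -1.32.

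Libraries differed in a way that touches these counts. Between 30 and 247 listed genes were at 0 in a Control library and between 113 and 596 in a mutant library, and mutants 6, 8, 9 and 10 each had over 400. Without those 4, Med7, Med18, Polr2b, Med25 and Polr3e no longer passed, and polymerase genes gave 11 higher and 2 lower and Mediator genes 10 higher and 3 lower (11.9% and 6.64% of all genes). The deposited scaling leaves no read total per embryo, so precision by depth is unknown, beyond a mean of 4.2 M reads per library over a pool of 20 libraries in the labels. Markers of the inner cell mass were lower in 4 of 11 listed genes and higher in 0, with Sox2 at 0 in some libraries. Their mean log2 level per embryo was 11.22 to 12.13 in Control and 8.64 to 11.69 in mutant embryos. For the primitive endoderm 7 of 10 were lower and 0 higher, with Gata4 at 0 in some libraries (10.28 to 13.02 in Control, 8.67 to 11.96 in mutants). The trophectoderm list had 2 higher and 1 lower of 11 (12.77 to 13.49, and 11.86 to 13.98), and 1 of 10 cumulus genes was listed, with a mean of 5.39 to 8.58 in Control and 3.70 to 8.43 in mutant embryos. The marker counts stand beside 14.6% higher and 12.0% lower of all genes. With each library's trend on transcript length and GC content removed, inner cell mass and primitive endoderm had 3 lower and 0 higher each. The trophectoderm then had 0 higher and 1 lower (10.6% and 10.2% of all genes). The part of the marker levels in the subunit results was not tested. In whole embryos, fewer cells of a type and less RNA per cell cannot be told apart.

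Both catalytic subunits of polymerase I fell in the mutants, and 2 of its 4 other own subunits rose. Of all genes, 12.0% were lower and 14.6% higher. Polr1a, the largest subunit, measured 11.01 to 12.46 in Control embryos (median 11.91) and 10.21 to 11.53 in mutants (median 11.00). It was 1.88-fold lower in the mutants (log2 fold change -0.91 ± 0.19 SE, adjusted p = 0.00133 by limma), with 5 of 9 mutants below every Control. Polr1b, its partner at the active centre, ran from 11.49 to 12.71 (median 12.18) in Control and from 9.36 to 11.77 (median 10.93) in mutants. This was a 2.50-fold lower level (log2 fold change -1.32 ± 0.24, adjusted p = 2.57e-04), and 8 of 9 mutants lay below all Controls. Polr1h, which helps the enzyme cleave back-tracked RNA, went the other way, from 8.48 to 10.98 (median 9.38) in Control to 10.13 to 12.18 (median 11.37) in mutants. Its log2 fold change was 1.73 ± 0.29 (adjusted p = 1.29e-04), with 7 of 9 mutants above all Controls. Polr1f, part of the stalk that meets the initiation factor RRN3, had 10.69 to 12.68 (median 11.58) in Control and 11.59 to 13.17 (median 12.47) in mutants (0.96 ± 0.24, adjusted p = 0.00536), and the groups overlapped. The other 2 polymerase I subunits, Polr1e and Polr1g, had log2 fold changes of -0.25 and 0.27 and did not pass. The antisense row Polr1has was also higher (7.40 to 9.97 in Control, 8.74 to 11.06 in mutants, log2 fold change 1.08 ± 0.33, adjusted p = 0.0184). Whether the counting used strand is not given in the sources used here, so any reads where the 2 overlap cannot be told apart. In GENCODE M21, none of the stretches of 31 bases in the Polr1h transcript occurs in another gene on either strand.

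Subunits shared between polymerases held the highest fold changes on the deposited values. Of the 5 that polymerases I, II and III have in common, 4 rose and none fell, with a median log2 fold change of 2.22. Of all genes, 14.6% were higher and 12.0% lower. The 4 that rose have coding sequences under 600 nt, a class where 52.5% of all genes were higher. With the coding length trend removed, Polr2k was at 0.61 and Polr2l at 0.77, below Polr2i (1.47), which is not shared. Polr2k measured 7.79 to 10.76 (median 8.90) in Control embryos and 10.68 to 13.56 (median 12.26) in mutants. It was 8.39-fold higher (log2 fold change 3.07 ± 0.39, adjusted p = 4.78e-06), and 8 of 9 mutants exceeded every Control. Polr2l, which sits with the assembly platform of each polymerase, was 7.85 to 9.91 (median 8.88) in Control and 10.43 to 12.67 (median 11.87) in mutants, so the groups did not overlap. Its level was 6.79-fold higher (2.76 ± 0.30, adjusted p = 7.30e-07). Polr2f and Polr2h also rose (2.22 and 1.04), and Polr2e did not pass at 0.54. The call for Polr2h ended in 10 of the 19 fits that left out 1 library (highest adjusted p = 0.0701). Polymerases I and III share Polr1d and Polr1c, both of which carry human Treacher Collins syndrome mutations. Polr1d rose, from 10.72 to 13.65 (median 11.80) in Control to 13.03 to 14.32 (median 13.63) in mutants (1.59 ± 0.30, adjusted p = 4.64e-04), and Polr1c did not pass at 0.30.

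Of the 8 own subunits of polymerase II, 3 small ones rose and 1 catalytic subunit passed as lower. The shares over all genes were 14.6% higher and 12.0% lower. Polr2a, the largest subunit with the tail of heptad repeats that is phosphorylated through the transcription cycle, measured 11.28 to 12.86 (median 12.25) in Control and 11.17 to 12.30 (median 12.02) in mutants. The ranges overlapped, with 8 of 9 mutants below the Control median, and the difference did not pass (-0.31 ± 0.20, adjusted p = 0.243). Polr2b, the partner subunit, was 12.40 to 13.42 (median 13.04) in Control and 11.99 to 13.11 (median 12.54) in mutants, 1.33-fold lower (-0.42 ± 0.15, adjusted p = 0.0462). That call ended in 14 of the 19 fits without 1 library (highest adjusted p = 0.0922). Polr2i, which supports accurate initiation and proofreading, had 8.86 to 11.30 (median 9.88) in Control and 11.76 to 13.31 (median 12.67) in mutants with no overlap, 5.82-fold higher (2.54 ± 0.30, adjusted p = 1.54e-06). Polr2j, which pairs with Polr2c when the enzyme is assembled, rose from 8.22 to 10.69 (median 9.05) to 10.44 to 12.04 (median 11.36), with 7 of 9 mutants above all Controls (1.99 ± 0.30, adjusted p = 3.66e-05). Its partner Polr2c, at 0.39, did not pass. Polr2g, of the stalk, rose by 1.03, but was at 0.07 (adjusted p = 0.797) with the transcript length trend removed, and its call ended with the detected-gene covariate (adjusted p = 0.0595). Its stalk partner Polr2d, at 0.42, and Polr2m, at -0.32, did not pass.

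Of the 10 symbol-matched members of polymerase III alone, 1 rose and 1 fell, shares near those of all genes (14.6% and 12.0%). Both alternative forms, Polr3g and Polr3gl, are among them. Crcp, outside the symbol rule, is counted with the polymerase III factors. The catalytic subunits Polr3a (9.45 to 11.34, median 10.30, in Control; 9.86 to 10.85, median 10.02, in mutants) and Polr3b (10.30 to 11.37, median 10.74; 10.15 to 10.78, median 10.48) overlapped between groups. Neither passed (log2 fold change -0.29 and adjusted p = 0.357, and -0.30 and adjusted p = 0.198). Polr3k, a zinc-ribbon subunit used in termination, rose from 9.58 to 11.87 (median 10.38) to 10.87 to 12.28 (median 11.56) (1.03 ± 0.26, adjusted p = 0.00521). Polr3e fell from 10.28 to 12.06 (median 11.40) to 9.43 to 10.90 (median 10.46) (-0.93 ± 0.25, adjusted p = 0.00879). The Polr3e call ended without mutants 6, 8, 9 and 10 (adjusted p = 0.113) and with a covariate for detected genes (adjusted p = 0.224). The Polr3k call also ended with that covariate (adjusted p = 0.128). With the coding length trend removed, Polr3k turned to a lower call (-0.58, adjusted p = 0.00801). For Polr3k and Polr3e the groups overlapped. The other 6 did not pass. Among them are Polr3g, the form of a subunit found in pluripotent cells, and Polr3gl, its counterpart of differentiated cells. Polr3g was 11.21 to 11.98 (median 11.45) in Control and 11.25 to 12.44 (median 11.86) in mutants (adjusted p = 0.357), and Polr3gl 2.32 to 6.27 (median 5.71) and 5.17 to 6.92 (median 6.21) (adjusted p = 0.220).

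Mediator's head and middle touch polymerase II. Among its modules the middle had the largest share of higher genes, 6 of 9 with 0 lower (median 0.81). Of all genes, 14.6% were higher and 12.0% lower. With the transcript length trend removed, the middle and the tail had 3 higher each (10.6% of all genes). With the coding length trend removed, the middle had 2 and the tail 3 (11.1%). Med31, which sits on the knob of the middle module, was 7.63 to 10.85 (median 8.65) in Control and 10.27 to 12.40 (median 11.36) in mutants, 4.98-fold higher (2.32 ± 0.33, adjusted p = 2.06e-05), with 7 of 9 mutants above all Controls. Med21, whose coil forms the hinge with Med7, rose from 9.58 to 13.19 (median 10.88) to 12.20 to 13.40 (median 12.79) (1.75 ± 0.34, adjusted p = 5.45e-04), with Control 9 at the highest Control value and 1 of 9 mutants above it. Med21 was at 0.12 (adjusted p = 0.638) with the transcript length trend removed. Med7, Med9, Med10 and Med19 rose by 0.61 to 1.15. The Med9 call ended in 8 of 19 fits without 1 library (highest adjusted p = 0.0670). Of the 3 middle genes that did not pass, Med1, the docking subunit for nuclear receptors, was 10.96 to 11.90 (median 11.47) in Control and 10.85 to 11.63 (median 11.54) in mutants (adjusted p = 0.757). Med4 was at -0.06 and Med26 at -0.88.

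The 7 head genes were split, with 2 higher, 2 lower and 3 not passing (median -0.11). Of all genes, 14.6% were higher and 12.0% lower. With the transcript length trend removed, 0 head genes were higher and 2 lower (10.6% and 10.2% of all genes). Med11, which pairs with Med22 in the head, rose from 8.0 to 10.86 (median 9.08) to 9.47 to 11.13 (median 10.43) (1.17 ± 0.30, adjusted p = 0.00645). Med6, at the contact with the middle, rose from 9.71 to 12.28 (median 10.89) to 11.54 to 12.62 (median 11.87) (0.97 ± 0.26, adjusted p = 0.00786). With the transcript length trend removed it was at 0.14 (adjusted p = 0.480), and its call also ended with the detected-gene covariate (adjusted p = 0.133). Med17, the core of the head, fell from 10.76 to 11.76 (median 11.30) to 10.58 to 11.20 (median 10.80) (-0.46 ± 0.14, adjusted p = 0.0184). Med18 fell from 9.76 to 10.97 (median 10.05) to 8.26 to 10.14 (median 9.35) (-0.65 ± 0.22, adjusted p = 0.0319), and its call ended without Control 6, Control 10, mutant 4 or mutant 6 (highest adjusted p = 0.0598). In 7 of 9 mutants it lay below all Controls. The partner Med22 was at -0.58 and did not pass (adjusted p = 0.0584). The 2 lower head genes with the transcript length trend removed were Med18 and Med22 (-1.10, adjusted p = 5.44e-04 by limma). Med17 no longer passed there (adjusted p = 0.0904 by limma). Med22 also passed as lower under quantile normalization (adjusted p = 0.0480 by limma).

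In the tail, 3 of 9 genes rose and 2 fell, beside 14.6% higher and 12.0% lower of all genes. Both counts were the same with the transcript length trend removed (10.6% and 10.2%). Med29 was 8.91 to 10.65 (median 9.68) in Control and 10.42 to 11.84 (median 11.52) in mutants, with 7 of 9 mutants above all Controls (1.58 ± 0.27, adjusted p = 1.34e-04). Med30 rose from 8.80 to 11.82 (median 10.13) to 11.21 to 12.28 (median 11.95) (1.47 ± 0.28, adjusted p = 5.04e-04), and Med28 rose by 1.28. Med25, a docking subunit for activators, fell from 9.82 to 12.77 (median 11.60) to 9.41 to 11.16 (median 10.29) (-1.26 ± 0.35, adjusted p = 0.00998). Its call ended without mutants 6, 8, 9 and 10 (adjusted p = 0.0961) and with the detected-gene covariate (-0.73, adjusted p = 0.244). Med24 fell from 9.73 to 11.35 (median 10.64) to 8.66 to 10.26 (median 9.57) (-1.03 ± 0.25, adjusted p = 0.00409), with 5 of 9 mutants below all Controls. Med23, its neighbour in the tail, was 9.88 to 11.46 (median 10.43) in Control and 9.64 to 10.46 (median 10.07) in mutants and missed the threshold (-0.50 ± 0.20, adjusted p = 0.0684). The scaffold Med14 was 10.69 to 12.57 (median 11.76) in Control and 10.48 to 11.70 (median 11.28) in mutants (-0.42 ± 0.23, adjusted p = 0.174).

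Of the 4 members in the kinase module, Med12 alone passed (26.6% of all genes in either direction). Med12, which activates the kinase, was 9.86 to 11.09 (median 10.67) in Control and 9.00 to 10.34 (median 9.64) in mutants, 2.04-fold lower (-1.03 ± 0.20, adjusted p = 6.07e-04), with 8 of 9 mutants below every Control. Its paralog Med12l was 11.95 to 13.73 (median 12.79) and 12.19 to 13.20 (median 12.67) (adjusted p = 0.506). Med13, which links the module to the core, was 10.22 to 12.18 (median 11.24) and 10.08 to 12.01 (median 11.22), and Med13l 10.81 to 11.45 (median 11.16) and 10.77 to 11.61 (median 11.16), with adjusted p = 0.923 and 0.768. The module's other genes are no members: the kinase Cdk19 fell (-0.75 ± 0.25, adjusted p = 0.0318), a call that ended without Control 4, Control 8, mutant 4 or mutant 5 (highest adjusted p = 0.0656) and without mutants 6, 8, 9 and 10 (adjusted p = 0.0511), and Cdk8 (-0.28, adjusted p = 0.359) and the cyclin Ccnc (0.43, adjusted p = 0.0714) did not pass. Med12 and Med14 lie on the X chromosome, and the sex of the embryos is not in the labels. None of the 4 listed Y-linked genes passed, with a mean per embryo of 2.86 to 12.18 in Control and 1.40 to 11.46 in mutants and Kdm5d at 0 in some libraries. The part of embryo sex in the Med12 result was not tested.

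Alternative subunits were compared within an embryo after each level was divided by transcript length, which does not remove a library's own trend on length. On that log2 per-kilobase scale Polr3g exceeded Polr3gl in all 19 embryos, by 5.11 ± 1.33 (SD, n = 10) in Control and 4.50 ± 0.55 (SD, n = 9) in mutants. The highest difference, 8.53, belonged to Control 9, the embryo with Polr3gl at 2.32. Med12l exceeded Med12 in every embryo, by 1.65 ± 0.72 (SD, n = 10) and 2.49 ± 0.72 (SD, n = 9). Cdk8 exceeded Cdk19 in every embryo, by 1.52 ± 0.34 and 1.98 ± 0.40. Med13 minus Med13l was near 0 in both groups, -0.19 ± 0.51 and -0.17 ± 0.69, with 4 of 10 Controls and 3 of 9 mutants above 0. Over all members in Control, the highest log2 levels per kilobase were those of Polr2e (12.56), Polr2m (12.36) and Polr2c (12.13), and the lowest those of Polr3gl (4.85), Med13 (7.77), Med12 (7.78) and Med13l (7.96). No test was made between genes. Transcripts of a pair differed in length: Polr3g 3054 and Polr3gl 1427 nt, Med12l 11006 and Med12 6809 nt, Cdk8 2973 and Cdk19 5807 nt. The part of each library's length trend in the differences between groups was not tested. Of the stretches of 31 bases in the Med12l transcript, 17.6% also occur in other genes.

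**Figure D2:**
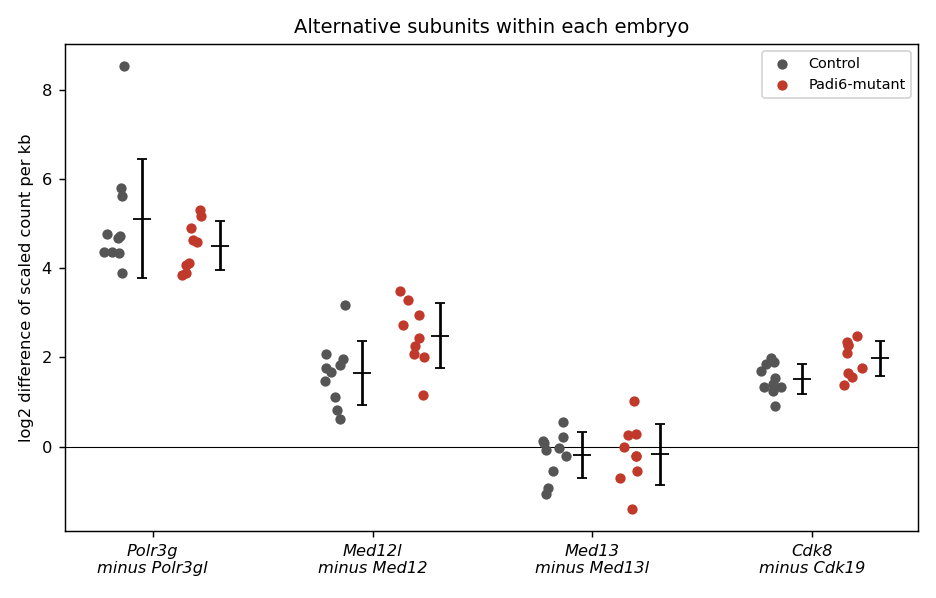
Difference between alternative subunits in log2 scaled count per kilobase of transcript (y axis), 1 point per embryo for 10 Control (grey) and 9 Padi6-mutant (red) embryos, with mean and SD as a bar. Polr3g minus Polr3gl, Med12l minus Med12 and Cdk8 minus Cdk19 are above 0 in all 19 embryos, and Med13 minus Med13l lies around 0.

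Higher and lower members also differed in the length of their coding sequence. The limits for coding length used here were chosen after the values were seen. Of 19 members with a coding sequence under 600 nt (stop codon left out), 18 rose and 0 fell, with a median log2 fold change of 1.58, and Polr2d (0.42, adjusted p = 0.180) was the exception. From 600 to 2000 nt there were 24 members, of which 4 rose and 2 fell (median -0.03). Over 2000 nt there were 18, of which 0 rose and 7 fell (median -0.42). All genes of those lengths were ordered the same way: under 600 nt 52.5% of 1436 were higher and 1.88% lower (median 0.92), from 600 to 2000 nt 9.32% of 6365 were higher and 12.7% lower (median -0.15), and over 2000 nt 1.41% of 3253 were higher and 22.5% lower (median -0.37). Spearman's rho between log2 fold change and coding length, across genes, which are not independent, was -0.79 over 61 members and -0.42 over 11054 genes. With transcript length it was -0.67 over 61 members and -0.36 over 13431 genes. Of 11 members with a transcript under 1000 nt 10 rose and 0 fell (49.4% and 1.71% of all such genes), of 28 from 1000 to 3000 nt 10 rose and 1 fell (11.5% and 10.3%), and of 22 over 3000 nt 2 rose and 8 fell (4.22% and 18.6%). The 9 members with a coding sequence under 600 nt on a transcript of 1000 nt or more, Polr2l among them, included 8 higher and 0 lower (median 1.47). The same class over all 761 genes had 37.1% higher and 3.15% lower (median 0.46).

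**Figure D3:**
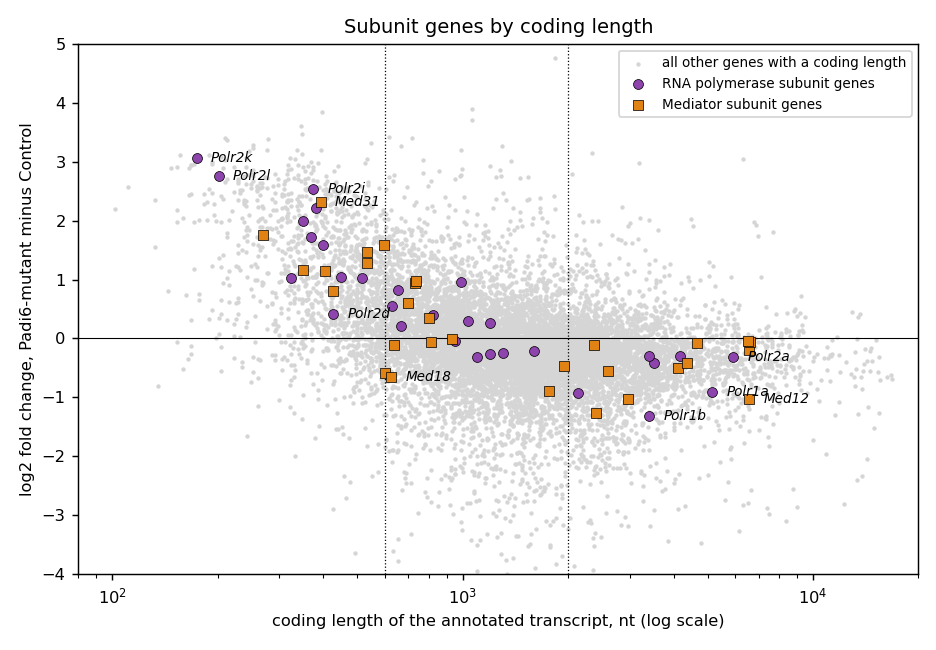
Log2 fold change (Padi6-mutant minus Control, y axis) against coding length in nt (x axis, log scale) for the same 30 RNA polymerase (purple) and 30 Mediator (orange) subunit genes over all genes with a coding length (grey). Dotted lines mark 600 and 2000 nt, and 30 genes lie outside the axes. Members under 600 nt are all above 0, and those over 2000 nt all below.

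Embryo by embryo, the short members were raised together. Against the Control mean of each gene, the median deviation of the 19 short members was 1.57 ± 0.43 (SD, n = 9) in mutants and 1.06 in the lowest mutant (mutant 10). For the 24 middle members it was 0.05 ± 0.24 and for the 18 long ones -0.47 ± 0.11. Controls spread as well: the short members lay at -1.10 in Control 1 and at 1.17 in Control 9. The median level of short minus long members was -1.06 ± 0.81 (SD, n = 10) in Control, from -2.18 in Control 1 to 0.38 in Control 5, with 2 of 10 above 0. In mutants it was 0.96 ± 0.39 (SD, n = 9), from 0.21 in mutant 9 to 1.57 in mutant 6, with 9 of 9 above 0. Over all genes the same difference was -0.23 ± 0.68 in Control and 1.16 ± 0.35 in mutants, with Control 1 lowest and mutant 6 highest in their groups as before, except that Control 9 (0.84) stood highest among the Controls. Within groups, pairs of short members correlated at a median Spearman's rho of 0.79 over the 10 Control embryos and 0.73 over the 9 mutants, and pairs of long members at 0.18 and 0.07. Short with long pairs gave -0.39 and 0.18. These are descriptions over genes of the same libraries, which share their scaling.

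**Figure D4:**
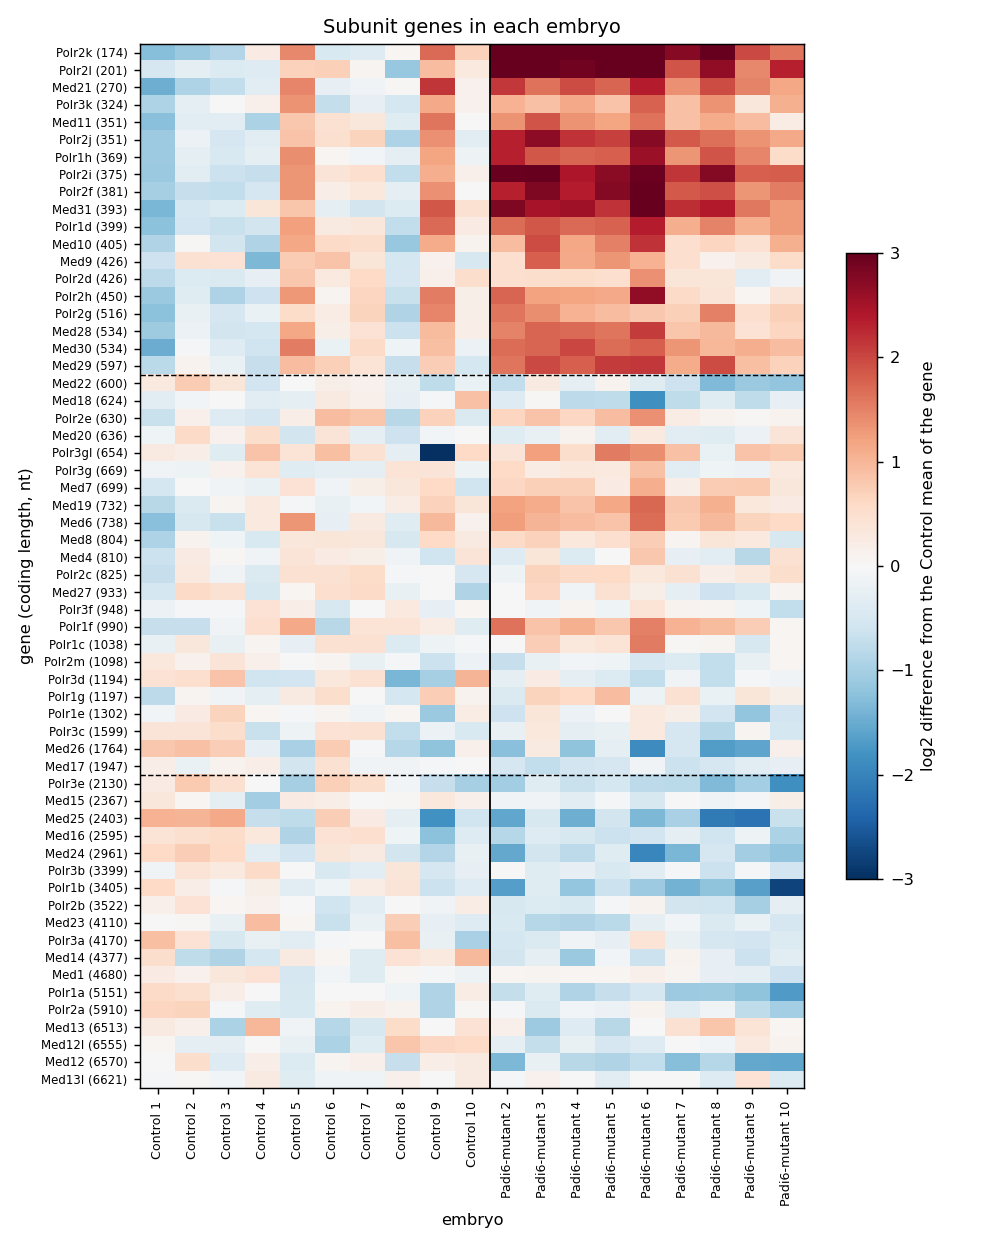
Log2 difference of 60 subunit genes (rows, ordered by coding length in nt, dashed lines at 600 and 2000 nt) from its Control mean in each of 10 Control and 9 Padi6-mutant embryos (columns). The colour scale ends at 3 in both directions. The upper rows are mostly red in the mutants and also in Control 5 and Control 9, and the lower rows are mostly pale or blue in the mutants.

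**Figure D5:**
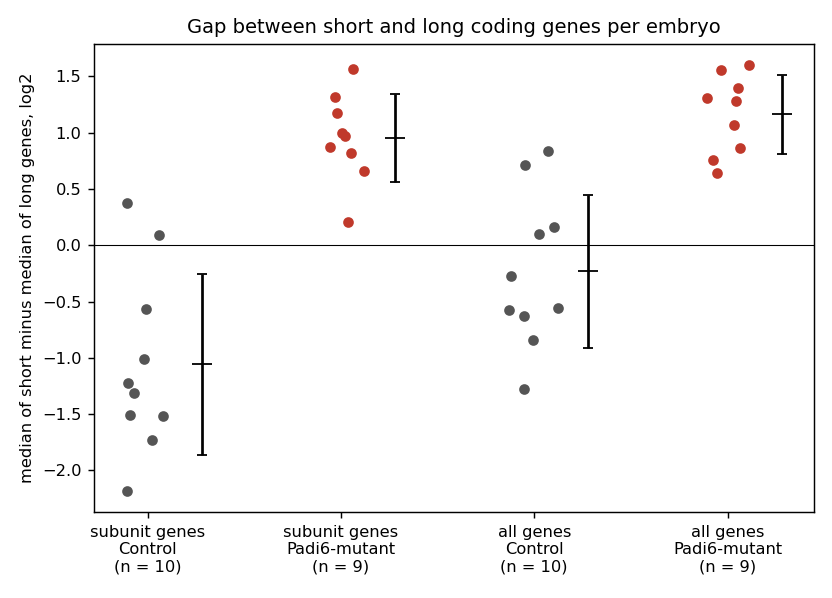
Median log2 level of genes with coding sequences under 600 nt minus that of genes over 2000 nt (y axis), 1 point per embryo, for the subunit genes and for all genes, with mean and SD as a bar. For the subunit genes all 9 mutants are above 0 and 2 of 10 Controls are.

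When the trend of each library on transcript length and GC content was removed, polymerase genes gave 10 higher and 3 lower and Mediator genes 6 higher and 5 lower, against 10.6% and 10.2% of 13431 genes. Of the 22 members that had risen, 15 still passed as higher, and of the 9 that had fallen 7 passed as lower. Polr2c as higher (0.44, adjusted p = 0.0318 by limma) and Med22 as lower (-1.10) passed with this trend removed and not on the deposited values. The calls that ended were those of Med21 (0.12), Med11 (0.39), Med6 (0.14), Med10 (0.29), Polr2h (0.32), Polr2g (0.07), Polr2b (-0.32), Med17 (-0.32) and Med7, which turned to -0.09. With coding length in place of transcript length, an alternative added after the values were seen, 14 and 4 still passed, against 11.1% and 11.0% of 11054 genes. Polr2i (1.47), Polr2f (1.25), Med31 (1.25), Med29 (1.20), Polr2j (0.81), Polr2l (0.77) and Polr2k (0.61) remained higher under it, and Polr1b (-0.92) and Med18 (-1.20) remained lower. Polr1a (-0.49, adjusted p = 0.0704), Med12 (-0.56, adjusted p = 0.0842), Polr3e (-0.55, adjusted p = 0.0641), Polr2b (-0.16) and Med17 (-0.23) no longer passed, nor did Med7 (0.07), Med10 (0.06), Polr2h (0.15) and Polr2g (0.23). Med21 (-0.13), Med9 (-0.12) and Med11 (-0.06) no longer passed and turned sign, and Polr3k turned to a lower call (-0.58, adjusted p = 0.00801). Members that passed under this alternative and not on the deposited values included Med13l as higher (0.39, adjusted p = 0.0309) and Polr2d (-0.67) and Med22 (-0.92) as lower. With the transcript length trend removed and the 4 libraries left out together, also added later, 9 polymerase genes were higher and 1 lower and 6 Mediator genes higher and 2 lower (8.06% and 7.13%). A covariate for how many genes a library detected left 8 higher and 1 lower polymerase genes and 8 higher and 2 lower Mediator genes (9.23% and 3.52% of all genes). The calls that ended with it were those of Polr3k, Med7, Med6, Med10, Polr2h and Polr2g among the higher genes and Med18, Polr2b, Polr1a (adjusted p = 0.0607), Med25, Polr3e and Med24 (adjusted p = 0.139) among the lower, and Med12 (adjusted p = 0.0145) and Polr1b (adjusted p = 0.0197) remained lower.

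Some members share sequence with other genes, which the counting could split between them. In 12 of the 61, over 20% of the stretches of 31 bases in the transcript also occur in another gene of GENCODE M21, with Med10 (80.6%), Polr2c (68.9%) and Med7 (50.1%) the most. Med31 shares 37.6%, Polr2i 37.4%, Polr2k 36.4%, Polr2l 27.3%, Polr2f 25.1% and Polr2j 23.7%. How such reads were assigned is not given in the sources used here, so these levels are uncertain. Of the 22 members with no shared stretch, 8 rose, 2 fell and 12 did not pass, beside 14.6% higher and 12.0% lower of all genes. Sharing was not measured for other genes, so the shares over all genes without a shared stretch are not known. All of the members that rose here but Med6 have coding sequences under 600 nt, a class where 52.5% of all genes were higher.

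The other genes of the transcription machinery were read from lists chosen with earlier results of these data known, and their counts stand beside 14.6% higher and 12.0% lower of all genes. With the transcript length trend removed (10.6% and 10.2% of all genes), Integrator had 2 lower and 0 higher, polymerase I factors 0 and 0, polymerase III factors 0 lower and 3 higher, and elongation factors 3 lower and 3 higher. Integrator, which cleaves nascent RNA beside polymerase II, had 5 of 14 lower and 0 higher, among them Ints7 (-0.87 ± 0.17, adjusted p = 6.13e-04) and Ints1 (-0.82 ± 0.22, adjusted p = 0.00885). General factors of polymerase II had 5 of 18 higher and 3 lower, with the small TFIIH subunit Gtf2h5 at 1.72 (adjusted p = 1.10e-04) and Gtf2a2 of TFIIA at 1.31 (adjusted p = 5.43e-04). TAFs of TFIID gave 3 of 13 listed higher and 1 lower, with Taf12 at 0.97 (adjusted p = 5.11e-04) and Taf4b at -1.07 (adjusted p = 0.00214). For polymerase I, 1 of 8 factors rose (Taf1d, 0.93, adjusted p = 0.00539) and 3 fell, Tcof1 among them (-0.81, adjusted p = 0.00858). Polymerase III factors had 2 of 17 higher (Snapc5, 1.48, adjusted p = 0.00220) and 2 lower (Gtf3c1, -0.77, adjusted p = 0.0100). Pausing and elongation factors had 5 of 25 higher, with Larp7 (1.14, adjusted p = 1.18e-04) and Elof1 (1.23, adjusted p = 9.33e-04), and 7 lower. Assembly factors and phosphatases of the polymerase II tail had 2 of 9 higher (Ssu72, 1.21, adjusted p = 1.74e-04) and 1 lower, the assembly factor Rpap1 (-0.97, adjusted p = 0.0159). Under the transcript length trend the calls of Ints1 (-0.19), Gtf2a2 (0.20), Taf1d (0.19), Tcof1 (-0.30), Gtf3c1 (-0.30), Elof1 (0.10) and Rpap1 (-0.46) ended. With the coding length trend removed Gtf2h5 (-0.32), Gtf2a2 (-0.28), Elof1 (-0.34) and Snapc5 (-0.16) turned sign and Taf12 (0.13) no longer passed. In mitochondria, whose own polymerase Polrmt fell (-1.17 ± 0.24, adjusted p = 8.84e-04), Tfb1m rose (1.38 ± 0.22, adjusted p = 7.58e-05) and the other 3 of 5 genes did not pass.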

How the data were processed

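Polyadenylated RNA of 19 single blastocysts (10 Control, 9 Padi6-mutant) was analysed, grouped by the genotype in the labels. Per the submitters' processing notes, the tools were Trim Galore 0.4.4 for trimming and HISAT2 2.1.0 for alignment, and the builds named are GRCm39 and mm39; per the labels, 75 bp reads were paired. The counting tool and annotation are not given in the sources used here. The deposited table holds log2 values: the authors scaled each library to a common upper quartile, and undoing the log gives whole numbers (tolerance 1.96e-07), taken here as scaled counts with 1 added. No further filter was used, since the table already holds only genes above 0 in 9 or more libraries. Precision per library could not be set from depth, which is not known.

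The 2 groups were tested against each other by limma 3.58.1 (lmFit and trended eBayes, two-sided; R 4.3.3) over all 14173 genes, with Benjamini-Hochberg adjustment and a threshold of 0.05. The fit was checked on simulated data with independent noise. It recovered 13 of 50 genes raised by 1 log2 unit and 22 of 50 lowered by 1. For changes of 2 units it recovered 33 of 50 raised and 37 of 50 lowered, with 4 false calls in all. The simulation held no length trend and changed few genes, so these rates need not hold for the embryos. A gene that did not pass is not shown to be unchanged. Lengths and sequences come from GENCODE M21 (the shortest principal transcript, otherwise the longest coding one) and RefSeq, on GRCm38, so no coordinate was joined to the files; 13431 genes had a transcript length and 11054 a coding length. Named members were the catalytic and alternative subunits, Med1, Med14 and Med23, and in each role up to 2 with the smallest adjusted p among those that rose and those that fell, with others given by value where they complete a count. One member enters the counts and is not reported here by name. The members and lists were chosen with earlier results of these data known. Alternatives were quantile normalization, a pseudocount of 16, genes above the median level, removal of length and GC trends (lowess with a span of 0.3), a covariate for how many genes a library detected, the replicate block, and leaving out libraries. The replicate numbers were taken as no pairing, since 1 of 9 same-numbered pairs had a correlation over 0.1.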

Additional observations from a re-analysis of the deposited data

Results flagged for a closer look

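Each group of 9 or 10 embryos was searched for a highest or lowest value set far apart from the rest. Of 78 groups tested, 4 held one, and chance gives about 1 in 20. Polr3gl was lowest in Control 9 at 2.32, where the nearest other Control was at 5.00. Med18 was highest in Control 10 at 10.97, with the nearest Control at 10.36, and lowest in mutant 6 at 8.26, with the nearest mutant at 9.31. Leaving out either of these 2 embryos ended the Med18 call, as given above. Polr3a was highest among mutants in mutant 6 at 10.85, with the nearest at 10.32.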

How the results depend on the processing

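The 37 named genes kept their direction and their side of the threshold under quantile normalization and under a pseudocount of 16. Over all genes 3765 passed (2068 higher, 1697 lower), and leaving out 1 library at a time gave 3035 to 4288 (1811 to 2262 higher, 1224 to 2026 lower), 10 to 12 higher and 3 to 5 lower polymerase genes, and 10 to 11 higher and 4 to 8 lower Mediator genes, with 8 without Control 9. The median log2 fold change of short members minus that of long members was 2.03 by transcript length and 2.00 by coding length. Leave-one-out ranges of these differences were 1.87 to 2.23 and 1.83 to 2.09. With only genes above the median level, 1242 were higher. With the transcript length and GC trend removed, 6 Mediator genes were higher and the differences fell to 0.46 and 1.23, by the alternative's construction. With the coding length trend removed, chosen after seeing the data, 2444 genes passed (1229 higher), 7 Mediator genes were higher and the differences were 0.40 and 0.60. With the transcript trend removed and without the 4 libraries, also chosen later, 2041 passed (1083 higher, 958 lower), with 1 lower polymerase gene, 6 higher and 2 lower Mediator genes and differences of 0.53 and 1.15. The detected-gene covariate gave 1807 (1308 higher, 499 lower), with 1 lower polymerase gene and 2 lower Mediator genes. Without the 4 libraries, 941 were lower, with 2 polymerase and 3 Mediator genes. The replicate numbers gave no sign of pairing: same-numbered embryos correlated at -0.07 to 0.15 in their deviations, and 1 of 9 mutants correlated best with its own number. Whether equal numbers share a litter or batch is not settled by these correlations, and the labels do not say. The fit with the replicate block, in which Control 1 has no partner and adds nothing to the difference, gave 2528 genes in all and 1000 lower, with 9 higher and 3 lower polymerase genes and 10 higher and 3 lower Mediator genes. Polr2b, Polr2g, Polr2h, Med9, Med17, Med18 and Cdk19 no longer passed. The cause of these changes was not tested beyond the alternatives' own construction.

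Signs turned in genes that had not passed, and in 5 members that had passed. The 5 were Polr3k, Med21, Med11 and Med9 under the coding length trend and Med7 under the transcript length trend. Among those that had not passed, Polr2d (0.42) turned to -0.36 under the transcript length trend and -0.67 under the coding length trend. Med8 (0.34) turned to -0.24 under the transcript length trend. With the coding length trend removed, log2 fold changes were -0.58 for Polr3k, -0.13 for Med21, -0.057 for Med11, 0.13 for Med12l, 0.39 for Med13l, 0.025 for Polr3b, 0.16 for Polr2a, 0.16 for Med13, 0.25 for Med1, -0.31 for Polr3g and 0.12 for Polr3a. With the transcript length trend removed they were 0.016 for Med12l, 0.29 for Med13l, 0.045 for Polr2a, 0.036 for Med13 and 0.12 for Med1, and without the 4 libraries besides 0.35 for Med13l, 0.0012 for Polr3b, 0.17 for Polr2a and 0.31 for Med1. Med1 was at 0.052 with the detected-gene covariate and at 0.070 without the 4 libraries, and Med13 ranged from -0.15 to 0.087 as single libraries were left out.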
